A study of Mus musculus with 11 samples.

Results

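To investigate how the transcripts that fill the granules and cytosol of neutrophils were distributed in the post-ischemic brain, 9 genes were followed through 11 single-cell RNA sequencing libraries of mouse brain. The genes were S100a8, S100a9, Ngp, Camp, Ltf, Retnlg, Wfdc21, Csf3r and Elane, chosen by symbol out of 32285 genes counted. They were counted as unique molecular identifiers (UMIs, each standing for 1 captured transcript molecule) in neutrophils and in every other cell type that could be named from its markers. Each library came from the right brain tissue of 1 mouse. There were 3 sham + WT libraries (replicates 1, 2 and 3), 3 of sham + Lrg1-/- (replicates 1, 2 and 5), 2 of MCAO/R + WT (replicates 1 and 2) and 3 of MCAO/R + Lrg1-/- (replicates 1, 2 and 5), and values are given in this order of groups and replicates. MCAO/R was an occlusion of the middle cerebral artery by a nylon filament for 1 h followed by reperfusion, and in sham mice the filament did not enter the internal carotid artery. The methods used here give several reperfusion times and do not say which applied to the sequenced mice. The authors' discussion speaks of short-term effects at 1 h, without naming the sequenced mice. WT mice were male C57BL/6 mice of 8 to 10 weeks. The Lrg1-/- mice were conventional knockouts, aged about 3 months, of the strain C57BL/6N-Lrg1em1cyagen (named C57BL/6 J in another place of the methods) from another source, which had been backcrossed to C57BL/6N for 4 generations, so that a substrain difference cannot be told apart from the genotype. They lacked Lrg1 (a secreted leucine-rich glycoprotein) in every cell of the body, so that neutrophils, vessels and glia were all affected and no cell type could be separated from another as the source of an effect. The tissue was digested, filtered and freed of red blood cells by lysis before capture.

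Neutrophils are made in the bone marrow, and their granules are filled in a fixed order during maturation. Primary granules, with the protease Elane (neutrophil elastase), are filled at the promyelocyte stage, and specific granules, with Ngp (neutrophilic granule protein), Camp (the cathelicidin precursor) and Ltf (lactoferrin), at the myelocyte stage, so that a circulating neutrophil normally carries the proteins but little of these transcripts. S100a8 and S100a9 form calprotectin, the main cytosolic protein of neutrophils, which acts as an alarmin through Tlr4 when released, Retnlg is a resistin-like secreted protein and Wfdc21 a whey acidic protein domain inhibitor, both abundant in mature mouse neutrophils, and Csf3r is the receptor for granulocyte colony-stimulating factor. Because neutrophils carry these transcripts at very high levels, RNA released from broken neutrophils can enter the droplets of other cells and be counted there, which is the usual meaning of free RNA.

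On the mouse genome GRCm38 with GENCODE annotation, all 9 were protein-coding genes. S100a8 (ENSMUSG00000056054) lay on chromosome 3 at 90668978 to 90670035 on the plus strand, close to S100a9 (ENSMUSG00000056071) at 90692632 to 90695721 on the minus strand. The 3 specific granule genes shared chromosome 9, with Camp (ENSMUSG00000038357) at 109847379 to 109849617 on the minus strand, Ngp (ENSMUSG00000032484) at 110419747 to 110423012 on the plus strand and Ltf (ENSMUSG00000032496) at 111019271 to 111042767 on the plus strand. Csf3r (ENSMUSG00000028859) lay on chromosome 4 at 126024550 to 126044440, Elane (ENSMUSG00000020125) on chromosome 10 at 79886247 to 79888215, Wfdc21 (ENSMUSG00000051748) on chromosome 11 at 83746940 to 83752642 and Retnlg (ENSMUSG00000022651) on chromosome 16 at 48872621 to 48874496, all on the plus strand. The UMIs were made from the 3′ ends of transcripts, so that levels of different genes were not divided by gene length.

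Promoters of 300 bases (250 before to 50 after the annotated start, RefSeq, GRCm38.p6) were found for 8 of the 9 genes, all except Wfdc21. They were searched on both strands for 10 patterns known from sites of myeloid factors or core promoters. The pattern TTGCNNAA, a form that sites of the C/EBP factors can take, was held by 10.8% of 32851 promoters and by 4 of the 8, which are shown here because they join a cytosolic alarmin, 2 specific granule genes and a late secreted product. The hits, or their reverse complement, are in capitals. S100a9 (chr3:90695672-90695971, minus strand) held it 236 bases before the start, Ngp (chr9:110419558-110419857, plus strand) at 138 and 11 bases, Ltf (chr9:111019042-111019341, plus strand) at 75 bases and Retnlg (chr16:48872358-48872657, plus strand) at 246 bases.
S100a9: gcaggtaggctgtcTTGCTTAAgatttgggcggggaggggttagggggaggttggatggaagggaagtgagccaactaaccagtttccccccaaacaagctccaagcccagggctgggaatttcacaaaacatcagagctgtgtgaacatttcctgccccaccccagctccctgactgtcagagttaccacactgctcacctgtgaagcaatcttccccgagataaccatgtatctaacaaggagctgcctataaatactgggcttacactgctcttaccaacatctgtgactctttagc
Ngp: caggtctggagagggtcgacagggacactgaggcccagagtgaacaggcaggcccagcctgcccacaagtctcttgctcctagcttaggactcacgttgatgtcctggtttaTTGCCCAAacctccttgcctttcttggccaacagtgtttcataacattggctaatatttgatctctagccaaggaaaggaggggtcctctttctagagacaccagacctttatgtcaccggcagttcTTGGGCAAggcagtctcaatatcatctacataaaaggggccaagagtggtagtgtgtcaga
Ltf: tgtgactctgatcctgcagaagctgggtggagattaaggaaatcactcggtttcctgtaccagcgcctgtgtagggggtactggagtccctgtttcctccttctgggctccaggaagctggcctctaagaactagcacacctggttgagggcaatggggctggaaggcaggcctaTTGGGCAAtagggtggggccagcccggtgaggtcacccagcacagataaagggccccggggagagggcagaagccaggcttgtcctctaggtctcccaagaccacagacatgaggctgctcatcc
Retnlg: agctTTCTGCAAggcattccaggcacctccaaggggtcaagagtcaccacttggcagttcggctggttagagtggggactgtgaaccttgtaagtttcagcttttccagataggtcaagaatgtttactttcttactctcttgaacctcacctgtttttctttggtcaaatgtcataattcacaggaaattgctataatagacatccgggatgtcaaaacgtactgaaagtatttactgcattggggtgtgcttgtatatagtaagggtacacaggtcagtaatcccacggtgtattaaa
Its palindromic form TTGCGCAA occurred in 0.183% of all promoters and in none of the 8. The looser forms TTGNNNAA and TTNCNNAA, which contain every TTGCNNAA hit, occurred in 36.7% and 40.7% of all promoters and in 4 and 5 of the 8, and TGNNGNAA occurred in 46.5% and in 6 of the 8. Of the patterns of ETS factors such as PU.1, GAGGAA was held by 28.3% (4 of the 8), AGAGGAA by 10.4% (Csf3r and S100a8), AGGAAG by 35.4% (5 of the 8) and GAGGAAGT, which contains GAGGAA and AGGAAG, by 3.20% (Elane and S100a8). TATAAA was held by 13.6% of all promoters and by S100a8 and S100a9. These matches of letters describe the sequences and do not show a bound site.

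The libraries held 155804 barcodes and 37159497 to 171813031 UMIs each, and 132437 cells with more than 500 genes, more than 1000 UMIs and less than 25% mitochondrial UMIs were retained. Of the deposited barcode sequences 2809 occurred in more than 1 library, at most 180 in any pair of libraries. Lrg1 itself was counted in neutrophils of the MCAO/R + WT mice at 3.92 and 6.29 UMIs per 10000 UMIs and in 85.1% and 74.3% of the cells, and in no neutrophil of any Lrg1-/- library, which put it at least 3064-fold lower over the MCAO/R libraries (1023 UMIs against 0, the latter set to 3 counts for the group as a whole). Of the retained cells, 77313 were named as 1 of 18 other types from at least 3 of 6 markers and a lead of 2 markers over the next type, and 52520 (39.7%) stayed unassigned, from 14.4% to 30.2% of the cells in the WT libraries and from 41.5% to 61.0% in the Lrg1-/- libraries. The deposited barcodes numbered exactly 15500, 9000, 5650 and 8500 in 4 of the Lrg1-/- libraries, round numbers that none of the WT libraries had, and whether barcodes were called alike in both genotypes was not tested, which bears on each share of cells and each level set between genotypes here. Neutrophils were cells with a UMI of at least 3 of Csf3r, Cxcr2, Il1r2, Mmp8 and Mmp9, and there were 2604 of them, 739 of which also met the markers of another type.

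Neutrophils named by this rule were scarce after sham surgery and more frequent after MCAO/R. They numbered 6, 19 and 8 in the sham + WT libraries, 23, 17 and 28 in sham + Lrg1-/-, 74 and 101 in MCAO/R + WT and 23, 443 and 1862 in MCAO/R + Lrg1-/-. As a share of the retained cells this was 0.0435%, 0.193% and 0.0847%, then 0.243%, 0.300% and 0.862%, then 0.744% and 0.810%, and then 0.357%, 2.47% and 5.45%. The share was higher in the MCAO/R libraries (1.97% ± 2.11, SD, n = 5) than in the sham libraries (0.288% ± 0.297, SD, n = 6; two-sided exact permutation test over libraries, p = 0.0130), with the genotypes pooled. Of the 5 MCAO/R libraries 3, both of WT and Lrg1-/- replicate 1, lay inside the pooled sham range, whose top was sham + Lrg1-/- replicate 5 (0.862%). Within WT both MCAO/R libraries lay above every sham library (at most 0.193%). Within Lrg1-/- replicate 1 lay inside the sham range. The rule used unthinned cells, and the depth of the neutrophils differed between libraries. Their median was 3848 to 4157 UMIs in sham + WT and 8136 to 12226.5 in sham + Lrg1-/-. It was 5004.5 to 8702 in MCAO/R + WT and 4349.5 to 13188 in MCAO/R + Lrg1-/-. The part of S100a9-rich cells that the rule took, given below, differed as well. Whether the rule found neutrophils alike in each group was not tested. Between the genotypes after MCAO/R the neutrophil share was 2.76% ± 2.56 (n = 3) against 0.777% ± 0.0470 (n = 2), which the exact permutation test did not separate (p = 0.4, where 0.1 is the smallest that 3 against 2 allows). The WT pair lay between the lowest and the other two Lrg1-/- libraries. With a requirement of 2 markers the difference turned to −4.60 percentage points, and 673 and 1770 cells of the MCAO/R + WT libraries carried exactly 2 markers.

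Csf3r is also a receptor of microglia, and Il1r2 was detected there too, so the rule was checked against S100a9 and Retnlg, which it does not use. Over all libraries S100a9 rose steeply with the number of markers in a cell, from 1.0 UMIs per 10000 in cells with none to 1.45 with 1, 5.64 with 2, 55.2 with 3, 201 with 4 and 516 with all 5. Retnlg followed the same order, at 0.185, 0.254, 0.759, 5.03, 32.3 and 117 UMIs per 10000. The step at the limit of 3 markers was unlike between libraries. In the MCAO/R + WT libraries the cells with exactly 2 markers held S100a9 at 0.183 and 0.141 per 10000 and the 28 and 56 cells with exactly 3 held 14.1 and 5.27, whereas in MCAO/R + Lrg1-/- replicate 5 the 2812 cells with 2 markers held 16.4 and the 1013 cells with 3 held 59.5. Cells with all 5 markers held 343 and 247 in MCAO/R + WT (28 and 27 cells) and 659, 676 and 377 in MCAO/R + Lrg1-/- (7, 202 and 252 cells).

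The cytosolic alarmins S100a8 and S100a9 were the most abundant of the 9 transcripts in neutrophils of every library. S100a9 was counted at 135, 339 and 357 UMIs per 10000 UMIs in sham + WT, 339, 356 and 191 in sham + Lrg1-/-, 148 and 70.1 in MCAO/R + WT and 284, 371 and 136 in MCAO/R + Lrg1-/-. S100a8, its partner in calprotectin, was at 92.1, 258 and 350, then 248, 275 and 161, then 112 and 61.2, and then 239, 309 and 104. MCAO/R + WT replicate 2 held the lowest level of both, and the other libraries of each group spread over more than the distance between most groups. S100a9 was detected in 83.3%, 100% and 100% of the sham + WT neutrophils, in 91.3%, 100% and 85.7% of sham + Lrg1-/-, in 74.3% and 56.4% of MCAO/R + WT and in 91.3%, 93.9% and 98.0% of MCAO/R + Lrg1-/-.

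Retnlg, the resistin-like product of late neutrophils, was at 15.1, 29.4 and 32.8 UMIs per 10000 in sham + WT neutrophils, 39.1, 14.2 and 16.4 in sham + Lrg1-/-, 38.3 and 16.3 in MCAO/R + WT and 46.3, 78.9 and 24.7 in MCAO/R + Lrg1-/-. All 4 groups overlapped, and MCAO/R + Lrg1-/- replicate 2 held the highest level. Wfdc21, the protease inhibitor domain protein, was lower than Retnlg in each library, at 1.89, 4.62 and 7.48, then 7.81, 6.37 and 4.08, then 5.51 and 3.16, and then 8.62, 9.41 and 3.46. Its groups overlapped as well. Csf3r, which helped to define the cells and is given as a description only, was at 7.15, 20.5 and 8.87 in sham + WT, 4.63, 7.02 and 1.92 in sham + Lrg1-/-, 5.48 and 4.02 in MCAO/R + WT and 4.89, 3.32 and 5.78 in MCAO/R + Lrg1-/-. Its highest level was that of the 19 neutrophils of sham + WT replicate 2, and the other groups overlapped.

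**Figure D1:**
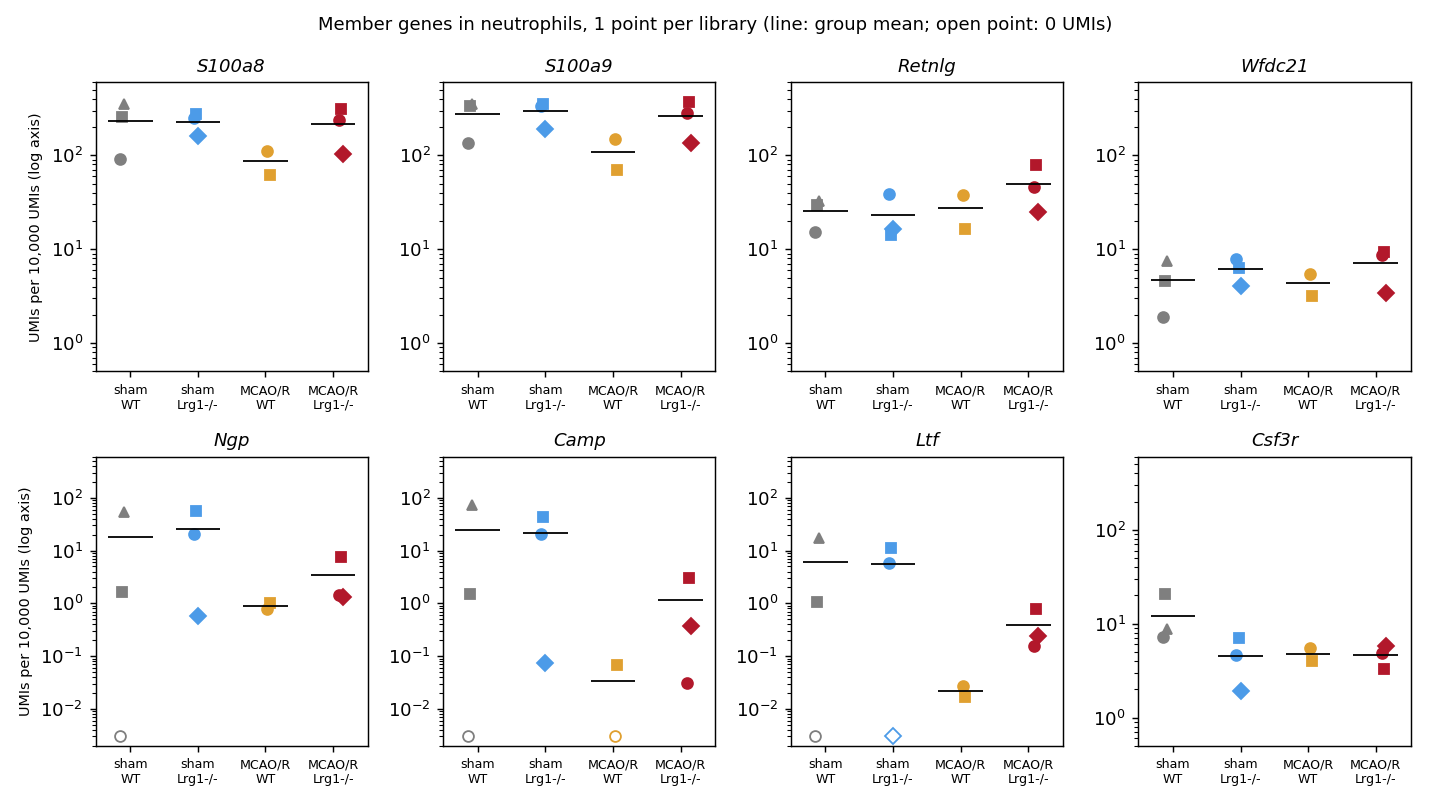
Levels of 8 of the 9 genes in neutrophils, in UMIs per 10000 UMIs on a log axis, with 1 point per library, the replicate number given by the marker, the group mean as a line and open points for 0 UMIs. S100a8 and S100a9 stand above the other genes in all 11 libraries, while Ngp, Camp and Ltf range from 0 to 71.5 within the sham groups.

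The UMIs of the specific granule genes were concentrated in few cells where they were abundant. In the 5 libraries with at least 1000 UMIs of the 3 genes together, neutrophils with 10 or more of these UMIs held 80.8% to 100% of them, and in the other 5 libraries with any, which had 39 to 129 UMIs, 28.3% to 92.3%. Ngp was at 0, 1.61 and 53.2 UMIs per 10000 in sham + WT neutrophils, 20.4, 55.4 and 0.570 in sham + Lrg1-/-, 0.787 and 1.02 in MCAO/R + WT and 1.44, 7.60 and 1.31 in MCAO/R + Lrg1-/-. Camp, the precursor of the cathelicidin peptide, was at 0, 1.50 and 71.5, then 20.4, 43.9 and 0.0731, then 0 and 0.0686, and then 0.0314, 3.07 and 0.376. Ltf, the iron-binding lactoferrin, was at 0, 1.07 and 17.2, then 5.71, 11.2 and 0, then 0.0271 and 0.0172, and then 0.157, 0.781 and 0.243. The high sham levels rested on single cells. In sham + WT replicate 3, 1 of 8 neutrophils held all 1120 UMIs of the 3 genes (420 of Ngp, 564 of Camp and 136 of Ltf). One cell of sham + Lrg1-/- replicate 2 held all 1716 (860, 682 and 174), and 2 cells of sham + Lrg1-/- replicate 1 held 98.8% of 1125.

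After MCAO/R the same concentration was seen in the Lrg1-/- libraries. In MCAO/R + Lrg1-/- replicate 2, 53 of 443 neutrophils with at least 10 UMIs of the 3 genes held 92.2% of 5352 UMIs, and the top cell alone held 2222 (1091 of Ngp, 932 of Camp and 199 of Ltf). In replicate 5, 22 of 1862 neutrophils held 80.8% of 2339 UMIs, and replicate 1 had 52 UMIs in all. The MCAO/R + WT libraries had 60 and 129 UMIs in 17 and 20 cells, the top cells holding 17 and 36. The share of neutrophils with a UMI of any of the 3 genes, after each cell was thinned to 1000 UMIs, was 8.70%, 20.8% and 5.26% in MCAO/R + Lrg1-/- (11.6% ± 8.14, SD, n = 3) and 14.9% and 6.93% in MCAO/R + WT (10.9% ± 5.61, SD, n = 2; exact permutation test, p = 1). The sign of this difference was not stable, since it was −3.92 percentage points without MCAO/R + Lrg1-/- replicate 2 and −3.29 without MCAO/R + WT replicate 2.

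**Figure D2:**
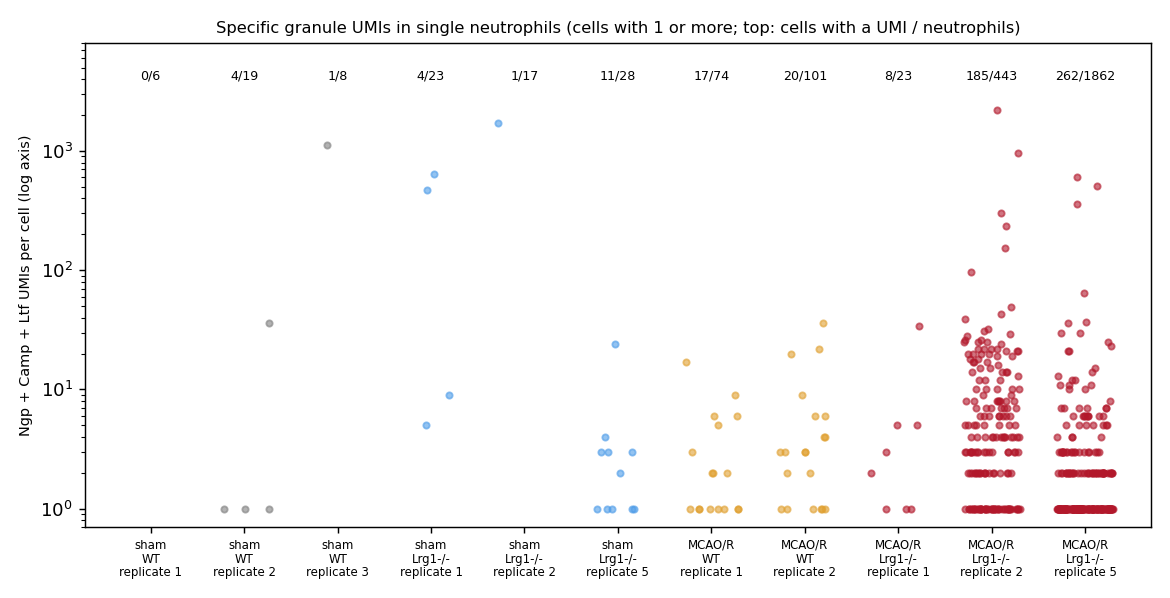
UMIs of Ngp, Camp and Ltf summed in single neutrophils with at least 1 such UMI, on a log axis, by library, with the number of these cells over the number of neutrophils above each column. Most cells hold a few UMIs and single cells of sham + WT replicate 3, sham + Lrg1-/- replicates 1 and 2 and MCAO/R + Lrg1-/- replicates 2 and 5 hold from 609 to 2222.

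Neutrophils sorted by these granule UMIs differed in the other members, which is a description because the cells were chosen on Ngp, Camp and Ltf and share their libraries. The 12 neutrophils with at least 100 granule UMIs, from 5 libraries, held S100a9 at 1308 and S100a8 at 1053 UMIs per 10000, Retnlg at 108, Wfdc21 at 30.6 and Csf3r at 1.10. The 74 cells with 10 to 99 held S100a9 at 769, Retnlg at 206, Wfdc21 at 20.4 and Csf3r at 3.80. The 427 cells with 1 to 9 held S100a9 at 358 and Retnlg at 88.2, and the 2091 cells with none held S100a9 at 116, S100a8 at 88.0, Retnlg at 16.0, Wfdc21 at 2.72 and Csf3r at 5.19. These classes mix libraries, since 48 of the 74 cells came from MCAO/R + Lrg1-/- replicate 2 and 1600 of the 2091 from replicate 5. Within replicate 2, from the richest class to the cells with none (5, 48, 132 and 258 cells), S100a9 was at 1419, 866, 592 and 160, Retnlg at 122, 229, 145 and 23.1 and Csf3r at 1.11, 3.61, 4.53 and 2.80. Within replicate 5 (3, 19, 240 and 1600 cells) S100a9 was at 1343, 524, 254 and 105, Retnlg at 153, 173, 64.7 and 14.7 and Csf3r at 2.66, 4.03, 5.61 and 5.86. In both libraries S100a9 was thus highest in the granule-rich cells and Retnlg in the class below, whereas the highest Csf3r level lay in different classes. Lcn2, the siderophore-binding protein of specific granules, was at 168, 52.1, 22.1 and 10.3 UMIs per 10000 in the same 4 classes, whereas the cytokine Il1b was at 2.26, 8.88, 18.2 and 34.0 and the chemokine Cxcl2 at 3.71, 26.8, 37.4 and 63.2. Another 3 cells with at least 100 granule UMIs, in 2 libraries, lay outside the neutrophil rule, with Ngp at 456, Camp at 480 and S100a9 at 1329 per 10000 and Csf3r at 0.

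Elane, the elastase of primary granules, was almost absent. Only 24 UMIs were found in 20 of 132437 cells, and a single UMI in 2604 neutrophils. Monocytes held 2 UMIs, endothelial cells, oligodendrocytes and neurons 1 each, and unassigned cells 18 in 14 cells. None of 27425 microglial cells held one, which allows a share of up to 0.0109% of cells with a UMI. The most in any library were 9 UMIs in 5 cells of sham + Lrg1-/- replicate 5. Of the other primary granule genes in neutrophils, the protease Prtn3 had 243 UMIs, Prss57 18, the peroxidase Mpo 9, Ms4a3 3 and Ctsg 0, while Ctsc, a lysosomal activator of granule proteases used by many cells, had 7723.

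To determine whether the loss of Lrg1 changed these transcripts in neutrophils after MCAO/R, the UMIs of all neutrophils of a library were summed and compared by edgeR. The libraries with at least 20 neutrophils entered the fit, which were sham + Lrg1-/- replicates 1 and 5 and all 5 MCAO/R libraries, so that no sham + WT library could be used. Calls needed an adjusted p (Benjamini-Hochberg, over all genes tested in the type) below 0.05 together with a fold change beyond 0.25 on the natural-log scale, in either direction. Of the 7 members tested, 0 were called, against 0.1% of 8984 genes (9 called, 1501 at an unadjusted p under 0.05 and 297 called by DESeq2). All 7 differences were positive, which is a description. The members share the same libraries, and Camp and Ltf could enter the test through the Lrg1-/- libraries. The share of positive differences over all genes is not given. For S100a8 the log2 difference was 1.55 ± 0.60 (SE; edgeR adjusted p = 0.263) and for S100a9 1.49 ± 0.61 (edgeR adjusted p = 0.280), and the groups overlapped for both. The log2 difference was 1.07 ± 0.64 for Retnlg and 0.95 ± 0.56 for Wfdc21 (edgeR adjusted p = 0.420 and 0.419).

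Among the specific granule genes the log2 differences were larger and less certain, at 2.14 ± 1.22 for Ngp, 5.13 ± 2.29 for Camp and 4.47 ± 2.0 for Ltf (SE; edgeR adjusted p = 0.395, 0.302 and 0.301). The MCAO/R + WT neutrophils held 8 UMIs of Camp and 4 of Ltf, against 1892 and 664 in MCAO/R + Lrg1-/-. The values of Camp and Ltf are a description, since both could enter the test through the Lrg1-/- libraries. The Lrg1-/- libraries lay above both WT libraries for Ngp and Ltf, while Camp overlapped. For Ltf the WT values rest on the 4 UMIs. The share of all genes without overlap is not given, so this is a description too. Most of these UMIs lay in the few granule-rich cells of MCAO/R + Lrg1-/- replicates 2 and 5, and Camp was at 0 in MCAO/R + WT replicate 1. With at least 2 markers required, all 7 members were called beside 20.3% of 11536 genes, S100a8 at a log2 difference of 4.05 (edgeR adjusted p = 0.00178), and this is the setting at which the WT sums took in the alarmin-poor cells with 2 markers. Without the filter on low counts 3 were called, beside 3.04% of 22172 genes. The occlusion itself could be read only in Lrg1-/- mice, where 0 of 7 members were called against 0% of 8984 genes (729 at an unadjusted p under 0.05 and 43 called by DESeq2).

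The cells behind the WT sums differed from those behind the Lrg1-/- sums. Neutrophils with fewer than 5 UMIs of S100a8 and S100a9 together were 27.0% and 42.6% of the cells in MCAO/R + WT and 8.70%, 14.9% and 5.80% in MCAO/R + Lrg1-/-. In the WT libraries these alarmin-poor cells carried a median of 4 of the 6 microglial markers, and in the Lrg1-/- libraries 1.5, 2 and 2. The 7 and 20 WT neutrophils that also met the microglial rule held S100a9 at 7.31 and 4.41 UMIs per 10000, against 79.2, 358 and 81.4 in the 1, 15 and 168 such cells of MCAO/R + Lrg1-/-. When all neutrophils with the markers of another type were left out, S100a9 was at 224 and 94.9 in MCAO/R + WT and 304, 415 and 152 in MCAO/R + Lrg1-/-, and none of the members was called. The part of these cells in the differences was not tested further.

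Hemoglobin transcripts moved with the genotype in the same sums. Hba-a1 was at 0 to 0.254 UMIs per 10000 in neutrophils of the WT libraries and at 17.5 to 286 in those of the Lrg1-/- libraries, and the 4 hemoglobin genes Hbb-bs, Hbb-bt, Hba-a1 and Hba-a2 were among the 9 genes called. The other called genes were Lrg1, Cd86, Cep152 and Ifih1, lower in Lrg1-/- mice, and Mia, which was higher. The 6 red blood cell markers summed to 0.210 to 1.52 UMIs per 10000 in WT neutrophils, and to 1.22 to 3.26 in Lrg1-/- neutrophils, so that the genotypes overlapped, and Slc4a1 was at 0 in all 5 WT and all 3 sham + Lrg1-/- libraries. Whether this bears on the members was not tested.

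To examine the genes around the members, 6 lists of related neutrophil genes were read from the same fit, and 0 genes of any list were called in neutrophils. The alarmin partners and receptors had the largest median log2 difference, 1.40 over 5 genes tested, beside 0.00593 over all genes. S100a6, a calcium-binding relative of the alarmins, was at 28.4, 42.3 and 22.0 UMIs per 10000 in MCAO/R + Lrg1-/- neutrophils and 9.18 and 6.31 in MCAO/R + WT, a log2 difference of 2.20 ± 0.47 (edgeR adjusted p = 0.128) with no overlap. S100a4 differed by 2.06 ± 0.54 (edgeR adjusted p = 0.169) and S100a11 by 1.40 ± 0.55 (edgeR adjusted p = 0.263). For the specific granule list, of which all 7 genes were tested, the median was 0.32, with Lcn2 at 0.32 ± 0.67, Chil3 at 0.14 ± 0.70 and Hp at 0.85 ± 0.39 on the log2 scale (edgeR adjusted p = 0.849, 0.942 and 0.312).

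The primary granule list had 2 of 6 genes tested, Ctsc at −0.74 ± 0.39 and Prtn3 at 0.32 ± 0.80 on the log2 scale (edgeR adjusted p = 0.363 and 0.874), and Prss57 was too low for the test. The gelatinase list, without Mmp8 and Mmp9, which helped to define the cells, had 6 of 7 tested and a median of 0.03, with the integrin Itgam at −0.17 ± 0.47 (edgeR adjusted p = 0.889). In the list of late and activation genes, without Cxcr2 and Il1r2, which helped to define the cells as well, all 11 were tested, with a median of 0.30, and the inflammatory genes Cxcl2, Il1b and Ccl4 differed by −0.21 ± 0.65, 0.59 ± 0.56 and −0.68 ± 0.46 on the log2 scale (edgeR adjusted p = 0.900, 0.622 and 0.473). Of the proliferation list 2 of 6 genes were tested, Stmn1 at 0.24 ± 0.68 and Tuba1b at 0.78 ± 0.51 (edgeR adjusted p = 0.892 and 0.461), with a median of 0.51, and Mki67 was too low for the test.

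To trace the transcripts outside neutrophils, they were counted in the other 18 types. In every library S100a9 was far lower there, at 0.0286, 0.264 and 0.0108 UMIs per 10000 in sham + WT, 0.160, 0.144 and 0.822 in sham + Lrg1-/-, 0.0744 and 0.0419 in MCAO/R + WT and 0.119, 1.15 and 4.49 in MCAO/R + Lrg1-/-. MCAO/R + Lrg1-/- replicates 2 and 5, the libraries with 443 and 1862 neutrophils, held the most. The level in neutrophils exceeded that in the other types 1285-fold to 33030-fold in sham + WT, 2120-fold, 2471-fold and 232-fold in sham + Lrg1-/-, 1985-fold and 1672-fold in MCAO/R + WT, and 2392-fold, 322-fold and 30.4-fold in MCAO/R + Lrg1-/-. In sham + WT replicate 2, 1 microglial cell held 2079 of the 2192 S100a9 UMIs of microglia, so its value is that of a single cell.

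The share of other cells with an S100a9 UMI, after thinning to 1000 UMIs per cell, was 0.236%, 0.333% and 0.151% in sham + WT, 1.35%, 1.59% and 5.04% in sham + Lrg1-/-, 0.641% and 0.440% in MCAO/R + WT and 1.41%, 12.6% and 32.1% in MCAO/R + Lrg1-/-. Unthinned, it was 0.981%, 2.86% and 1.12%, then 5.33%, 7.60% and 22.4%, then 6.45% and 4.15%, and then 7.43%, 53.0% and 68.0%. Every Lrg1-/- library thus lay above every WT library in the thinned share. Neutrophils, which were at most 5.45% of the cells of a library, held 56.5% to 95.8% of its S100a9 UMIs. In MCAO/R + Lrg1-/- replicate 5 they held 57.0%, and unassigned cells 31.1%. That library had 4589 cells with at least 10 S100a9 UMIs, of which 1464 were neutrophils, 2415 unassigned and 710 of other types. Neutrophils were 94.3% and 92.9% of such cells in the MCAO/R + WT libraries and 30.8%, 76.9% and 31.9% in MCAO/R + Lrg1-/-, and after sham surgery 41.7%, 90.5% and 100% in WT and 30.6%, 60.7% and 25% in Lrg1-/- libraries.

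**Figure D3:**
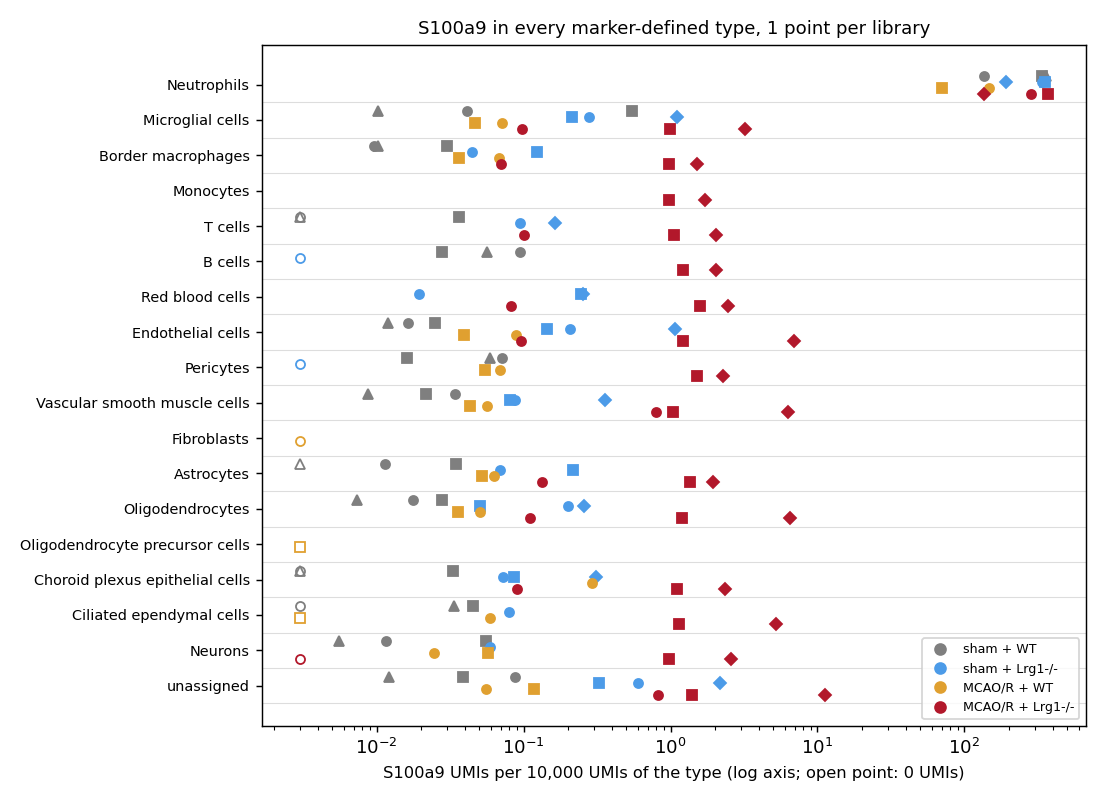
S100a9 in UMIs per 10000 UMIs of each cell type on a log axis, with 1 point per library coloured by group and open points for 0 UMIs, for types with at least 20 cells in the library and for all neutrophils and unassigned cells. Neutrophils lie between 70.1 and 371, and in the other types the 2 highest points are mostly MCAO/R + Lrg1-/- replicates 2 and 5.

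Within a library S100a8 kept a proportion to S100a9 in most other types that was close to that in neutrophils, Retnlg did so in the MCAO/R libraries, and Ngp, Camp and Csf3r often did not. S100a8 stood to S100a9 as 0.681 to 0.981 in neutrophils of the 11 libraries, and the median of this ratio over the other types of a library was 0.577 to 1.07. In MCAO/R + Lrg1-/- replicate 2, S100a9 ranged over 14 types only from 0.970 UMIs per 10000 in monocytes to 1.60 in red blood cells. In replicate 5 it ranged from 1.50 in border macrophages to 6.93 in endothelial cells, so that the types there did not share 1 level. Retnlg stood to S100a9 as 0.213 and 0.181 in the neutrophils of these libraries, with medians of 0.255 and 0.166 over the other types, but in sham + WT replicate 1 as 0.112 with a median of 0.0184. Ngp stood to S100a9 as 0.00533 and 0.0146 in MCAO/R + WT neutrophils and at medians of 0.107 and 0.170 outside them, and in sham + WT replicate 1 as 0 and 0.693, while in MCAO/R + Lrg1-/- replicate 2 it was 0.0205 and 0.0175. Camp stood as 0 and 0.818 in sham + WT replicate 1. The median ratio of Csf3r over the other types was above that in neutrophils in all 11 libraries, at 1.07 against 0.0371 in MCAO/R + WT replicate 1 and 0.0508 against 0.00896 in MCAO/R + Lrg1-/- replicate 2. For Csf3r in MCAO/R + Lrg1-/- replicates 2 and 5 the ratio in neutrophils was 0.00896 and 0.0425 and in microglia, which are known to make the receptor, 0.874 and 0.374. The values of a library share its depth and its free RNA, and no test was made of them.

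**Figure D4:**
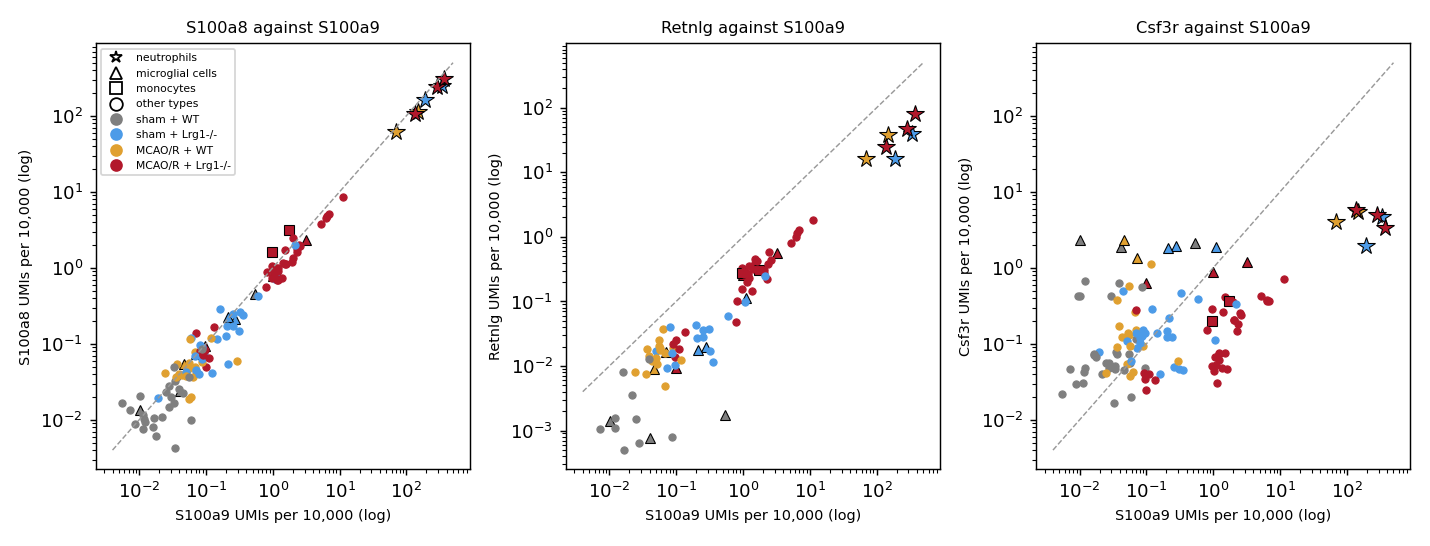
S100a8, Retnlg and Csf3r against S100a9, all in UMIs per 10000 UMIs on log axes, with 1 point per cell type and library (stars neutrophils, triangles microglia, squares monocytes, circles other types) and a dashed line of equality. S100a8 and, at the higher levels, Retnlg run along the neutrophil proportion, and Csf3r in microglia stays between 0.629 and 2.31 over the range of S100a9.

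Monocytes, which are known to make S100a8 and S100a9 themselves, departed from the neutrophil proportion in the 2 libraries with at least 20 of them. In MCAO/R + Lrg1-/- replicate 2, 241 monocytes held 484 UMIs of S100a8 and 289 of S100a9, a ratio of 1.67 against 0.833 in the neutrophils of that library. In replicate 5, 110 monocytes held 347 and 188, a ratio of 1.85 against 0.766. Without the top cell the ratios were 1.56 and 1.57. Replicate 1 had 12 monocytes with 2 UMIs of each gene. The MCAO/R + WT libraries had 9 and 4 monocytes, with 21 UMIs of S100a8 and 0 of S100a9 in the first and 45 and 1 in the second, where 41 were in 1 cell. Wfdc21 was also highest in monocytes among the other types of replicates 2 and 5, at 0.164 and 0.294 UMIs per 10000. No sham library had 20 monocytes, and no test was made.

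To determine whether the trace differed between genotypes after MCAO/R, the 8 members other than Elane, which passed the filter on low counts in no type, were tested wherever they passed it in 10 other types, giving 54 tests of a member in a type. Of these 32 were called, 31 higher and 1 lower in Lrg1-/- mice, which is 59.3% beside 15.8% of all gene tests in the same types (8.55% higher and 7.23% lower). The filter could be passed through the MCAO/R + Lrg1-/- libraries, where the members were high, so that the count describes the tests that entered. In 18 of the 54 the MCAO/R + WT libraries held fewer than 10 UMIs of the member together, and 10 of these were called, against 22 of the other 36. The count of 32 fell to 17 without sham + Lrg1-/- replicate 5 or without MCAO/R + WT replicate 2, and to 21 without sham + Lrg1-/- replicate 2. Among the tests with at least 10 UMIs in the WT libraries S100a9 was called higher in 8 of 8 types, S100a8 in 7 of 8, Retnlg in 3 of 4, Wfdc21 in 1 of 2, Ngp in 1 of 3 and Camp in 1 of 3, and the 1 call of Csf3r, in microglia, was the lower one. No share of all genes at this limit is given, so these counts cannot be set against the 15.8%. Ltf, tested in microglia only, had a log2 difference of 2.58 (edgeR adjusted p = 0.149). The types do not count as replicates, since they come from the same 5 libraries.

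In endothelial cells, where 27.4% of genes were called, S100a9 was at 0.0961, 1.21 and 6.93 UMIs per 10000 in MCAO/R + Lrg1-/- and 0.0883 and 0.0395 in MCAO/R + WT, a log2 difference of 5.37 ± 1.50 (edgeR adjusted p = 0.0201). S100a8 in the same cells was at 0.0841, 1.01 and 5.07 against 0.0569 and 0.0403, with a log2 difference of 5.37 ± 1.40 (edgeR adjusted p = 0.0148). Replicate 1 of the knockout lay close to the WT libraries for both, and the difference was carried by replicates 2 and 5. In microglia, where 33% of genes were called, S100a9 was at 0.0979, 0.997 and 3.19 against 0.0715 and 0.0470 (log2 difference 4.53 ± 1.59, edgeR adjusted p = 0.0430), and S100a8 was not called (edgeR adjusted p = 0.0532).

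Retnlg gave the same picture in endothelial cells, at 0.0137, 0.352 and 1.27 UMIs per 10000 against 0.0193 and 0.0141 (log2 difference 4.99 ± 1.40, edgeR adjusted p = 0.0207), where replicate 1 lay below the WT libraries. In microglia it was at 0.00918, 0.253 and 0.569 against 0.0163 and 0.00915 (4.40 ± 1.08, edgeR adjusted p = 0.0079). In oligodendrocytes, where 32% of genes were called, S100a9 was at 0.110, 1.20 and 6.49 against 0.0505 and 0.0358 (6.08 ± 1.22, edgeR adjusted p = 0.0027), and here S100a8, S100a9 and Retnlg kept their calls under each of 22 alternative settings. The call of S100a9 was lost in endothelial cells without MCAO/R + WT replicate 1 (edgeR adjusted p = 0.0815) or replicate 2 (0.119), and in microglia in 7 of the 22 settings. Wfdc21 in vascular smooth muscle cells was at 0.0809, 0.0254 and 0.172 UMIs per 10000 (64 UMIs) against 0 in both WT libraries, which is given as a description because it entered the test through the libraries where it was high.

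In choroid plexus epithelial cells, where the WT group was 1 library of 42 cells and neither alarmin was called, S100a9 was at 0.0908, 1.11 and 2.33 UMIs per 10000 against 0.293, or 5 UMIs, in that library (log2 difference 2.21 ± 1.77, edgeR adjusted p = 0.704, 0.139% of genes called). Of the specific granule genes in oligodendrocytes, Ngp differed by 2.89 and Camp by 3.17 on the log2 scale (edgeR adjusted p = 0.0061 and 0.0135). Ngp was at 0.00734, 0.0324 and 0.0693 UMIs per 10000 against 0.00541 and 0.00608 in WT, where 24 UMIs were counted. Camp was at 0.00367, 0.0136 and 0.0403 against 0 and 0.00405 in WT, from 12 UMIs, so that its groups overlapped. The level of Ngp in vascular smooth muscle cells was 0, 0.0286 and 0.0977 UMIs per 10000 against 0 and 0.00392 in WT, where 1 UMI was counted, and it is given as a description for the same reason as Wfdc21.

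**Figure D5:**
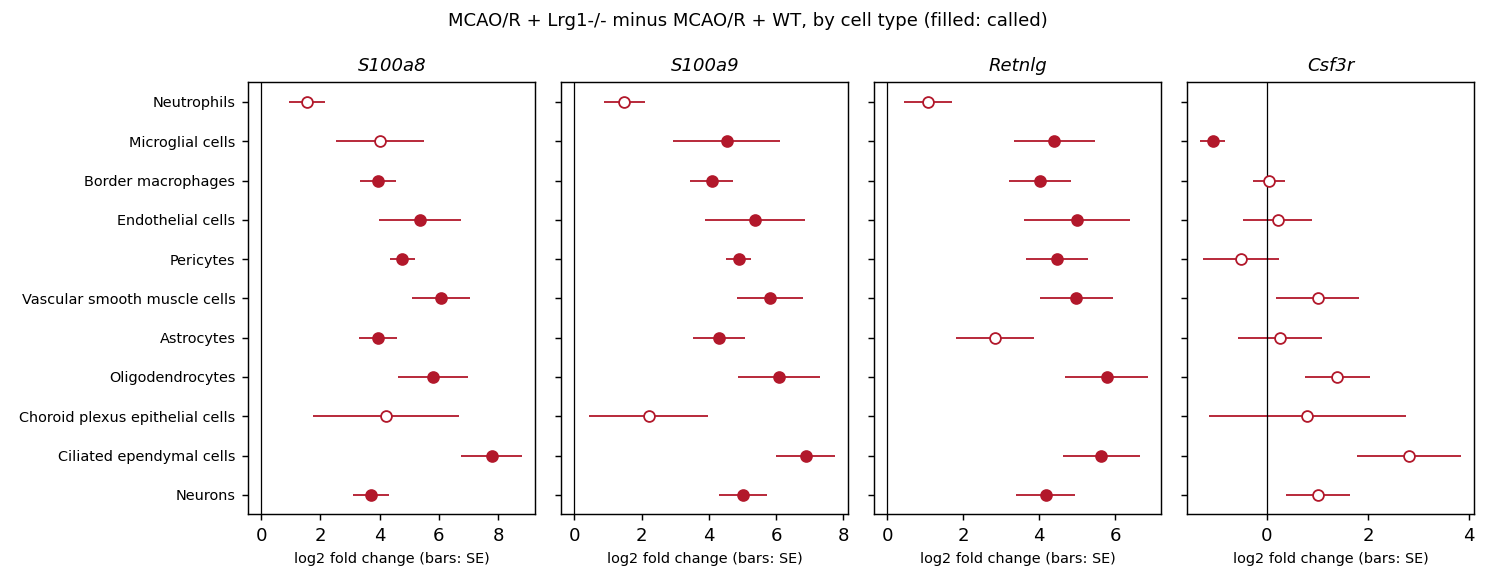
Log2 difference ± SE between MCAO/R + Lrg1-/- and MCAO/R + WT for S100a8, S100a9, Retnlg and Csf3r in each cell type, with filled points for calls and Csf3r in neutrophils left out. S100a8, S100a9 and Retnlg lie above 0 in the types shown, and the one filled point below 0 is Csf3r in microglia, at −1.07. Fewer than 10 UMIs in MCAO/R + WT lie behind the calls of S100a8 and S100a9 in ciliated ependymal cells. The same holds for Retnlg in border macrophages, pericytes, vascular smooth muscle cells, ciliated ependymal cells and neurons. Such calls could enter through the Lrg1-/- libraries and are a description.

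Other transcripts that belong to other cells moved with the genotype in the same endothelial sums. Hba-a1 was at 1.24 to 3.42 UMIs per 10000 in the WT libraries and 53.1 to 116 in the Lrg1-/- libraries. The 6 choroid plexus markers summed to 0.115 to 0.282 in WT and 0.581 to 1.81 in Lrg1-/- libraries, with all 6 detected in each, and the 6 red blood cell markers to 0.525 to 0.586 and 1.24 to 2.19, with Slc4a1 at 0 in 3 of the 5 WT libraries and in 1 of the 6 Lrg1-/- libraries. The oligodendrocyte markers overlapped, at 0.674 to 1.99 and 0.940 to 5.87. Their part in the trace of the members was not tested, and the share of unassigned cells, which was higher in each Lrg1-/- library, cannot be told apart from the genotype.

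The same tests were read without the occlusion and across it. Between the genotypes after sham surgery 3 of 58 tests (5.17%) were called, all higher in Lrg1-/- mice, beside 7.84% of all gene tests in those types (3.89% higher). Over both directions the called share of the members was below that of all genes, so the calls are a description. In 29 of the 58 the sham + WT libraries held fewer than 10 UMIs of the member together, and 0 of these were called. The other 29 held all 3 calls, and 15 of the 58 tests had a group of 1 library. S100a9 was at 0.207, 0.145 and 1.08 UMIs per 10000 in endothelial cells of sham + Lrg1-/- mice and 0.0164, 0.0251 and 0.0120 in sham + WT, a log2 difference of 4.72 ± 1.35 (edgeR adjusted p = 0.0312). S100a8 there was at 0.172, 0.116 and 0.720 against 0.0105, 0.0231 and 0.0102 (4.50 ± 1.27, edgeR adjusted p = 0.0301), and Retnlg in microglia at 0.0199, 0.0180 and 0.111 against 0.000757, 0.00173 and 0.00139 (4.78 ± 1.37, edgeR adjusted p = 0.0195). None of these groups overlapped, as in 28 of the 58 tests of this comparison. The share of all gene tests without overlap is not given. The count fell to 0 without sham + Lrg1-/- replicate 5, without sham + WT replicate 1, or without sham + WT replicate 3, and rose to 11 without MCAO/R + Lrg1-/- replicate 5.

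In WT mice 1 of 54 tests was called between MCAO/R and sham surgery (10.2% of all gene tests, 4.93% lower). In 25 of the 54 the sham + WT libraries held fewer than 10 UMIs of the member together, and 0 of these were called. The call was Camp in microglia, at 0.00139 and 0.00566 UMIs per 10000 after MCAO/R and 0.0222, 0.148 and 0.00750 after sham surgery (log2 difference −4.12 ± 1.26, edgeR adjusted p = 0.0342). The highest of these, sham + WT replicate 2, is the library with the 1 microglial cell rich in S100a9, and without that library Camp was not called (−2.09, edgeR adjusted p = 0.171). In Lrg1-/- mice 18 of 59 tests were called, 17 higher and 1 lower after MCAO/R (10.2% of all gene tests, 5.59% higher and 4.6% lower). In 29 of the 59 the sham libraries held fewer than 10 UMIs of the member together, and 7 of these were called, again tests that the filter could admit through the libraries with high levels. Of the 59 tests 15 had a group of 1 library, whose spread was assumed to be that of the other groups. Among the tests with at least 10 sham UMIs S100a9 was called in 3 of 7 types, by 4.35 on the log2 scale in vascular smooth muscle cells, 3.94 in oligodendrocytes and 3.21 in choroid plexus epithelial cells. S100a8 was called in the same 3 of 6 types and Retnlg in 4 of 4. Of these calls, only those of S100a8 and S100a9 in vascular smooth muscle cells had groups without overlap. In the others MCAO/R + Lrg1-/- replicate 1 lay within or below the sham range, and only replicates 2 and 5 lay above it. Retnlg in microglia was at 0.00918, 0.253 and 0.569 UMIs per 10000 after MCAO/R against 0.0199, 0.0180 and 0.111 after sham surgery. No share of all genes at this limit is given here either, so these counts are a description. The count of 18 fell to 4 without sham + Lrg1-/- replicate 1 or replicate 2, to 8 without MCAO/R + Lrg1-/- replicate 5 and to 9 without sham + Lrg1-/- replicate 5. The test of the difference between the 2 genotypes in the effect of the occlusion called 0 of 54 (edgeR, 1.63% of all gene tests), with a lowest edgeR adjusted p of 0.135 for Camp, and of 0.301 for S100a9.

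Csf3r was counted in microglia as well, which are known to make it. Microglia held 22.5% to 80.3% of its UMIs in a library. In microglia it was at 1.85, 2.12 and 2.29 UMIs per 10000 in sham + WT, 1.91, 1.85 and 1.91 in sham + Lrg1-/-, 1.33 and 2.31 in MCAO/R + WT and 0.629, 0.871 and 1.19 in MCAO/R + Lrg1-/-. The 3 MCAO/R + Lrg1-/- libraries were the lowest of the 11. If all S100a9 in microglia came from neutrophils, the Csf3r that came with it would be 11.4% of this level in MCAO/R + Lrg1-/- replicate 5. In every other library it would be at most 1.55%. The receptor was lower in Lrg1-/- than in WT mice after MCAO/R by a log2 difference of −1.07 ± 0.24 (edgeR adjusted p = 0.00528) and lower after MCAO/R than after sham surgery in Lrg1-/- mice by −0.96 ± 0.22 (edgeR adjusted p = 0.00524). After sham surgery the genotypes differed by −0.30 ± 0.22 (edgeR adjusted p = 0.327), and in WT mice the occlusion gave −0.19 ± 0.25 (edgeR adjusted p = 0.650). The difference between these effects was −0.77 ± 0.33 (edgeR adjusted p = 0.174), which does not show that they differed.

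The first of these calls rested on MCAO/R + WT replicate 2, without which it was −0.71 (edgeR adjusted p = 0.0807), and the interaction was called without MCAO/R + WT replicate 1 (−1.10, edgeR adjusted p = 0.0381). After thinning to 1000 UMIs per cell, 16.3%, 17.7% and 19.4% of microglia held a Csf3r UMI in sham + WT, 15.3%, 14.3% and 16.1% in sham + Lrg1-/-, 12.2% and 20.4% in MCAO/R + WT and 3.73%, 9.76% and 11.1% in MCAO/R + Lrg1-/-. Csf3r is also 1 of the 5 genes of the neutrophil rule, and cells with at least 3 of these were not counted as microglia. The genotype difference was −1.12 when cells with 2 were taken out of the microglia as well and −1.04 when cells with 3 were left in (edgeR adjusted p = 0.00365 and 0.00756).

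In microglia the related lists had calls where neutrophils had none, beside 33% of all genes (18.4% higher and 14.6% lower). Of the alarmin partners and receptors 4 of 6 rose in Lrg1-/- mice after MCAO/R, S100a4 by 4.09 ± 0.51, S100a6 by 3.02 ± 0.44, S100a11 by 2.04 ± 0.31 and Anxa1 by 1.76 ± 0.62 on the log2 scale, while Anxa1 in replicate 1 lay below both WT libraries, and Tlr4, a receptor of the alarmins, fell by 0.49 ± 0.14 (edgeR adjusted p = 0.0197). After sham surgery also 4 genes of this list were called higher and 1 lower, beside 29.2% of genes. The specific granule list had 2 of 5 higher (Chil3 by 4.30, with replicate 1 below both WT libraries, and Hp by 3.32), the gelatinase list without Mmp8 and Mmp9 1 of 5 higher and 1 lower (Alpl by 2.52 higher, Slc11a1 lower), and the primary granule list 1 of 3 higher (Mpo). The late and activation list without Cxcr2 and Il1r2 had 3 of 10 higher (among them Il1b by 1.74 ± 0.52) and 1 lower, Ccrl2. The 4 genes left out belong to the neutrophil rule, which also took cells out of the microglia. The proliferation list had 3 of 6 higher (Mki67, Cdk1 and Birc5). These lists include products of neutrophils, microglia and monocytes alike.

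Across all sums of a library and a type with at least 20 cells (130 sums, 17 types), the genes whose level was most like that of the summed members were Il1b (Pearson r = 0.871 of log2(CPM + 1), CPM being UMIs of a gene relative to all UMIs of the sum), Trem1 (0.846), Mmp8 (0.841, a gene of the neutrophil rule), Slpi (0.840) and Trem3 (0.833), out of 9236 genes with at least 200 UMIs in neutrophils. The sums of a library share its depth and its free RNA, so that these values are a description.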

How the data were processed

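Single-cell RNA sequencing libraries were made from 11 mouse brains with a 10x Genomics 3′ kit. The authors deposited raw UMI counts per gene and barcode, 1 matrix per library, made with Cell Ranger, whose matrix headers give version 7.0.1, on the genome mm10, with Cell Ranger and STAR named in the submitters' processing notes. No deposited normalization was applied. Groups and replicate numbers were taken from the labels. Nothing says that the libraries of a group were processed together, and p-values measure the spread between these libraries.

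Cells were kept at the limits of more than 500 genes, more than 1000 UMIs and less than 25% mitochondrial UMIs. Types were scored on 5 markers for neutrophils, which took priority, and 6 for each other type. The markers were listed with earlier results of these data known, as were the members and the related gene lists, and the scoring rule (3 markers, a lead of 2) was set after the counts had been seen. Cells called doublets by a Scrublet-style simulation (6932, with a rate of 6% used in 6 libraries where the threshold marked under 0.5%) were kept and removed as an alternative.

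UMIs were summed per library and type with at least 20 cells and fitted by edgeR 4.0.16 (R 4.3.3; quasi-likelihood F test, TMM normalization, filterByExpr) over all 4 groups, which share 1 estimate of the spread. The authors' own test between cells was replaced because cells are not replicates. Shares were compared by exact permutation over libraries. Thinning drew 1000 UMIs per cell with seed 1. A gene at 0 was given a floor of 3 counts, and intervals and floors cover counting error only. The fits were tested on simulated counts first. The MCAO/R against sham comparison in Lrg1-/- neutrophils was added after the data were seen. Alternatives were DESeq2 1.42.0, other size factors, no low-count filter, a replicate block, other cell limits and marker numbers, thinning and leaving out each library.

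The text names the 9 members, Lrg1, the 3 genes with the most UMIs in neutrophils of each list without a call, genes called in microglia, and the 5 genes most correlated with the members. The granule classes, the genes called in neutrophils, the primary granule genes below the first 3 and the values of hemoglobin and of Lcn2, Il1b and Cxcl2 by class were chosen after their values were seen. The values of a few listed genes are not reported here. Python 3.11.15 with numpy 2.4.6, scipy 1.17.1 and pandas 2.3.3 was used for the counts and matplotlib 3.10.9 for the plots.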

Additional observations from a re-analysis of the deposited data

Results flagged for a closer look

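S100a9 was also counted in barcodes that failed the limits on genes, UMIs or mitochondrial UMIs, which no comparison uses. In MCAO/R + Lrg1-/- replicate 5 these 2677 barcodes, with a median of 926 UMIs, held 1214 UMIs of S100a9, or 3.96 per 10000 UMIs, and 28.8% of them had one, above the highest sham library (1.96 per 10000, sham + Lrg1-/- replicate 5). The level in MCAO/R + Lrg1-/- replicate 2 was 1.90, within the sham range of 0.0294 to 1.96. S100a9 in the named cells other than neutrophils of replicate 5 was at 4.49 per 10000. In proportion the failed barcodes and the named cells were further apart in the other MCAO/R libraries. They held 1.08 and 0.0744 per 10000 in WT replicate 1 and 0.586 and 0.0419 in WT replicate 2. In Lrg1-/- replicate 1 they held 0.544 and 0.119, and in replicate 2 they held 1.90 and 1.15. The WT values rest on few barcodes. In MCAO/R + WT replicates 1 and 2 only 1.22% of 658 and 1.79% of 672 failed barcodes had an S100a9 UMI, with 69 and 34 UMIs in all. The source of the UMIs was not tested.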

How the results depend on the processing

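Of 17 or more alternatives, the members called in neutrophils between genotypes after MCAO/R (0) became 7 with at least 2 markers (20.3% of 11536 genes) and 3 without the low-count filter (3.04% of 22172 genes). For MCAO/R against sham in Lrg1-/- mice 0 became 2 without that filter, beside 0.902% of 22172 genes. In other types the count between genotypes after MCAO/R (32) was 17 to 33 when single libraries were left out, with 17 without sham + Lrg1-/- replicate 5 or MCAO/R + WT replicate 2 and 21 without sham + Lrg1-/- replicate 2. After sham surgery the count of 3 was 5 with at least 2 or at least 4 markers, 0 thinned, 12 without the low-count filter, 8 by DESeq2 and 0 to 11 when libraries were left out. In WT mice across the occlusion the count of 1 was 0 with at least 2 markers, 0 thinned, 13 without the filter, 3 by DESeq2 and 0 to 4 when libraries were left out. In Lrg1-/- mice the count of 18 was 39 without the filter, 11 by DESeq2 and 4 to 26 when libraries were left out, and the interaction (0) was 10 without the filter and 0 to 1 when libraries were left out. The cause of these changes was not tested, other than that thinning and fewer libraries leave fewer tests. For the other types the share of all gene tests called under each alternative is not given, so these counts are a description. In neutrophils the share of all genes called between genotypes after MCAO/R rose from 0.1% to 3.04% without the filter and 3.31% by DESeq2.

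The genotype difference in the neutrophil share after MCAO/R turned to −4.60 percentage points with at least 2 markers and was 0.638 to 3.18 when libraries were left out. The granule share turned to −4.22 with at least 4 markers and −2.54 without neutrophils that carry another type's markers, and ranged from −3.92 to 4.64 when libraries were left out. The higher neutrophil share after MCAO/R kept its call in all 18 alternatives (0.809 to 7.40 percentage points, and 0.809 to 2.08 when libraries were left out). These include the setting of at least 2 markers, which took in the alarmin-poor cells of the MCAO/R + WT libraries. A call at that setting says nothing about neutrophils. Csf3r in WT microglia across the occlusion was 0.15 on the log2 scale without MCAO/R + WT replicate 1 (edgeR adjusted p = 0.797), and ranged from −0.63 to 0.15 when libraries were left out. Genes called in neutrophils between genotypes numbered 9, against 2343 with at least 2 markers, 675 without the low-count filter, 297 by DESeq2, 34 without doublets, 14 thinned, 5 with at least 4 markers, 5 without cells of another type, and 1 to 15 when libraries were left out. Sham endothelial S100a8 and S100a9 each lost the call in 6 of 22 alternatives. Neutrophils numbered 6 to 28 per sham library.

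With the replicate number as a block, the count was 24 of 54 between genotypes after MCAO/R, 2 after sham surgery, 2 in WT mice, 13 in Lrg1-/- mice, 1 for the interaction, and 16 of 8984 genes (0.178%) were called in neutrophils. In the other types the share of all gene tests called under the block is not given, so the member counts are a description. S100a9 in choroid plexus epithelial cells turned to −0.27 on the log2 scale under the block (edgeR adjusted p = 0.952), and in microglia it lost its call (0.0689). The numbers did not pair the samples, since same-numbered libraries deviated from their group means with correlations of −0.437 to 0.195, and the block is given for completeness.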
